A study of Mus musculus with 24 samples.

Results

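The genes described here encode 10 proteins of the muscle extracellular matrix: the small leucine-rich proteoglycans Bgn (biglycan), Dcn (decorin) and Lum (lumican), the adhesive glycoprotein Fn1 (fibronectin), the matricellular proteins Sparc (osteonectin), Postn (periostin), Ctgf (connective tissue growth factor, also called CCN2) and Tnc (tenascin-C), and the elastic fibre proteins Fbn1 (fibrillin-1) and Eln (elastin). They were chosen by gene symbol, and each of the 10 matched a single one of the 36172 gene models counted. All 10 were among the 13048 genes with enough counts to be tested. RNA was sequenced from the gastrocnemius, the main calf muscle, of C57BL/6 mice in 24 libraries, 4 in each of 6 groups. WT mice were Notch2f/f, with both Notch2 alleles floxed, and Notch2-mKO mice were Mlc1fCre/+;Notch2f/f. The floxed alleles were therefore present in every group, and the groups differed by Cre, which is driven by the Mlc1f locus in skeletal muscle fibres and not in the fibroblasts and vessel cells that share the tissue. Each genotype gave an untreated control group, a group after 7 days of hindlimb suspension (unloading) and a group sampled 14 days after a single intraperitoneal injection of streptozotocin (STZ, 150 mg/kg), which destroys the insulin-producing beta cells and makes mice diabetic. Age is not given in the sources used here.

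Small leucine-rich proteoglycans coat collagen fibrils, set their width and spacing, and bind growth factors such as TGF-beta. Matricellular proteins are secreted into the matrix and act on cell adhesion and signalling more than on its stiffness, while fibrillin microfibrils form the scaffold on which elastin is laid down and hold latent TGF-beta in the matrix. In skeletal muscle most of these proteins come from interstitial fibroblasts and fibro-adipogenic progenitors, vessel cells and tendon cells, and several are known to follow mechanical load through the TGF-beta and YAP pathways.

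Libraries held 33112459 to 56369917 estimated counts, and levels below are in CPM, the count of a gene scaled to the size of its library (by TMM). The tissue label was checked on 10 muscle fibre genes, which together reached 152000 to 336000 CPM in every library. The lowest of these sums belonged to replicate 1 of the unloaded Notch2-mKO group, whose scaling factor of 1.279 also stood apart from the others. The libraries also differed by base composition. The mean log2 level of AT-rich genes minus that of GC-rich genes lay between -0.906 and -0.181 in WT controls and between 0.196 and 0.52 in treated WT libraries. In Notch2-mKO muscle it lay between -0.569 and 0.0384 in controls, between -0.191 and 0.283 after unloading and between -0.007 and 0.307 in diabetes. Each change was therefore also computed after a trend over GC content and transcript length was removed from every library. For the changes of the 10 genes with treatment, that value is given where it alters a call or a direction. For other genes and lists it is given for some calls and counts only. Whether the trend is technical was not tested. The labels do not say that replicates are separate animals, so every p-value here reflects only how these samples scatter, which may be technical.

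In WT muscle after unloading, 1 of the 10 genes rose (Dcn) and 6 fell (Bgn, Fn1, Sparc, Fbn1, Eln and Tnc) at an adjusted p below 0.05, where 18.4% of all tested genes were called higher and 16.3% lower. In WT muscle of diabetic mice 2 rose (Dcn and Lum) and 4 fell (Bgn, Fn1, Sparc and Fbn1), against 17.8% higher and 15.5% lower over all genes. In Notch2-mKO muscle only Tnc fell with unloading, against 4.11% higher and 3.2% lower over all genes, and Sparc, Fbn1 and Tnc fell with diabetes, against 3.05% higher and 2.54% lower. The median log2 change of the 10 genes was -0.85 with unloading and -0.54 with diabetes in WT muscle, and -0.45 and -0.32 in Notch2-mKO muscle. Over all genes these medians were -0.02, -0.01, 0.02 and -0.01. With 1 library left out, the number called was 5 to 8 for WT unloading, 4 to 6 for WT diabetes, 0 to 2 for Notch2-mKO unloading and 0 to 3 for Notch2-mKO diabetes. The share of the 10 genes called lower was above that of all genes in these 4 comparisons, although in Notch2-mKO unloading it rested on Tnc alone. A smaller number of calls in Notch2-mKO muscle does not show a smaller response, and the difference between genotypes is tested further on.

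**Figure D1:**
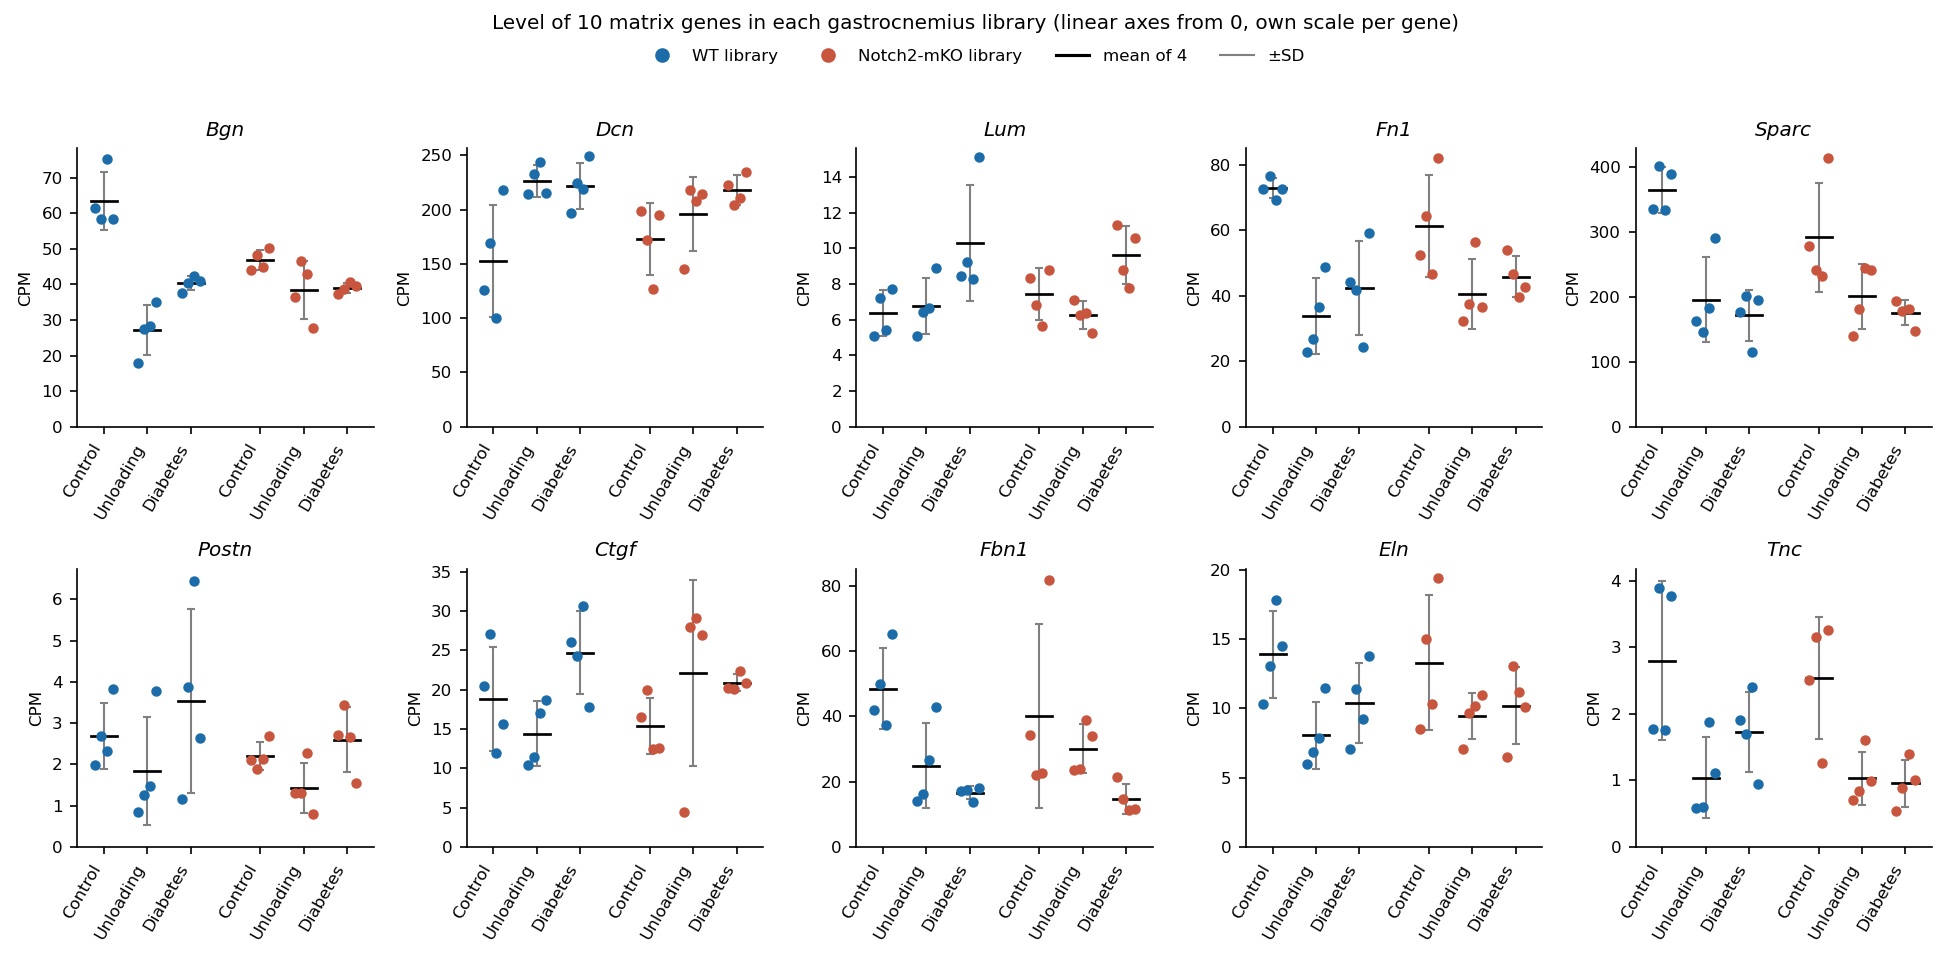
Level of each of the 10 genes in CPM (linear axes from 0, a separate scale per gene) in the 24 libraries. Points are libraries (blue WT, red Notch2-mKO), black lines group means of 4 and grey bars SD. Bgn, Fn1 and Sparc in both treated WT groups lie wholly below the WT controls, while Dcn lies at the upper end of its range there.

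The sequence before the start site was examined for the 4 genes that had a window at their outermost start in the RefSeq promoter table (GRCm38.p6). In the fit of all libraries, before the trend was removed, 3 of them (Bgn, Sparc and Tnc) fell in several comparisons and Postn was called in none. The windows hold 250 bases, end at the base before the start, and are written 5′ to 3′ on the gene's own strand, in lower case with motif matches in capitals.
Bgn (biglycan, chrX:73483351-73483600, plus strand): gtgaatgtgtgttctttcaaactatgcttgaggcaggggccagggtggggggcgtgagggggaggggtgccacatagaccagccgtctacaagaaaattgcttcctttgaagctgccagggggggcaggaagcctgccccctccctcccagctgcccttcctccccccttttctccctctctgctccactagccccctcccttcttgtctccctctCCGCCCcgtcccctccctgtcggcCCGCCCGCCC
Sparc (osteonectin, chr11:55420081-55420330, minus strand): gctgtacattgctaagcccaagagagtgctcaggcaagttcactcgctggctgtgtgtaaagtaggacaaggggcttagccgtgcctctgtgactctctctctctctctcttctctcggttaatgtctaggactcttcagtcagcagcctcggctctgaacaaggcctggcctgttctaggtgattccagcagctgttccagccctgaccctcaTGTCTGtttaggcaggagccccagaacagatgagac
Tnc (tenascin-C, chr4:64047016-64047265, minus strand): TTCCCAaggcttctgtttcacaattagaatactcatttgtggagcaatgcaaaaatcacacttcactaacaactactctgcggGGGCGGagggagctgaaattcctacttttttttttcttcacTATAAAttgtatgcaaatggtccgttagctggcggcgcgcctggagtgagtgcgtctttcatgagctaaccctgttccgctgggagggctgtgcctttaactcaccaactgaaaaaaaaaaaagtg
Postn (periostin, chr3:54359017-54359266, plus strand): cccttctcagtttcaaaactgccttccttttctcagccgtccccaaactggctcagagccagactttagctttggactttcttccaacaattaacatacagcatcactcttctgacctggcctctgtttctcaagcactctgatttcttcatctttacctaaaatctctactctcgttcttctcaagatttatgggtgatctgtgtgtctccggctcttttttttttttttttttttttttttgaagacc
The motifs searched on both strands were GGAATG (bound by TEAD, the DNA-binding partner of YAP), TGGGAA (bound by RBPJ, through which Notch receptors act), CAGACA (SMAD, the effectors of TGF-beta), GGGCGG (SP1) and TATAAA (the TATA box). Of 32851 mouse promoter windows scanned in the same way, 12.6% held the TEAD letters, 21.6% the RBPJ letters, 17.1% the SMAD letters, 32.7% the SP1 letters and 12.4% the TATA letters. The Bgn window had 64.4% GC and 3 SP1 matches on the opposite strand, starting 34, 10 and 6 bases before the start, of which the last 2 overlap. The Sparc window had 54.0% GC and a SMAD match on the opposite strand at 36 bases. The Tnc window had 44.8% GC, an RBPJ match on the opposite strand at 250 bases, an SP1 match at 167 and a TATA match at 126. The Postn window had 40.4% GC and none of these letters. None of the 4 windows held the TEAD letters, and no motif was present in all 3 windows of Bgn, Sparc and Tnc. These matches are descriptions of the letters and were not tested as binding sites.

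Among the proteoglycans, biglycan fell in WT muscle whether or not the GC and length trend was removed, and decorin rose there only before it was removed. Bgn (chrX:73483601-73495936, plus strand) binds collagen and TGF-beta and links the matrix to the dystrophin-associated complex on the fibre surface. In WT controls its level was 61.5, 58.4, 75.4 and 58.5 CPM. It was 17.9, 27.5, 28.3 and 35.0 CPM after unloading and 37.7, 40.4, 42.5 and 41.1 CPM in diabetic mice. Every treated WT library was below every WT control, and every diabetic library was above every unloaded one. Bgn fell by 1.22 on the log2 scale with unloading (SE 0.15, adjusted p = 3.82e-06), to 0.428 of the control level, and fell by 0.65 with diabetes (SE 0.15, adjusted p = 0.00191). Both calls held in all 8 fits that left out 1 library and with the GC and length trend removed (-1.06 and -0.50). Between the treated WT groups Bgn was higher in diabetes by 0.57 (SE 0.15, adjusted p = 0.0319), a call that held in 2 of 8 fits with 1 library left out: it was lost without unloaded replicate 1 (0.42, adjusted p = 0.114), 2 or 3, or diabetic replicate 2, 3 or 4 (0.55 to 0.59, adjusted p up to 0.0746).

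In Notch2-mKO muscle Bgn stood at 44.2, 48.2, 44.8 and 50.4 CPM in controls, at 36.5, 46.6, 43.0 and 27.8 CPM after unloading and at 37.2, 38.8, 40.7 and 39.5 CPM in diabetes. The unloaded libraries overlapped the controls, and the diabetic ones lay just below all 4 of them. Neither change passed the test, at -0.29 (SE 0.15, adjusted p = 0.244) and -0.26 (SE 0.15, adjusted p = 0.311). All 4 Notch2-mKO controls were below all 4 WT controls, a difference that did not pass the test (-0.44, adjusted p = 0.893).

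Dcn (chr10:97479500-97518163, plus strand), which binds collagen fibrils and TGF-beta much as biglycan does, read 126, 169, 100 and 218 CPM in WT controls. After unloading it read 214, 233, 244 and 215 CPM, and in diabetes 197, 225, 219 and 249 CPM. Replicate 4 of the WT controls, whose AT-rich against GC-rich difference of -0.181 was the smallest of that group, reached the treated range, and the other 3 stayed below it. The log2 change was 0.56 with unloading (SE 0.18, adjusted p = 0.0147) and 0.54 with diabetes (SE 0.18, adjusted p = 0.0203). Both calls were lost with the trend removed, where the direction turned to -0.28 (adjusted p = 0.179) and -0.32 (adjusted p = 0.13). The unloading call was also lost without WT control replicate 1 (0.47, adjusted p = 0.0692) or replicate 3 (0.39, adjusted p = 0.0825), and the diabetes call without the same libraries (0.45 and 0.38, adjusted p = 0.0817 and 0.101) or diabetic replicate 4 (0.48, adjusted p = 0.0566). Dcn has a GC content of 37.4%, against a median of 50% over tested genes. In Notch2-mKO muscle it was 199, 172, 127 and 195 CPM in controls, 145, 218, 208 and 214 CPM after unloading and 223, 204, 211 and 235 CPM in diabetes. The diabetic libraries lay above all controls, yet neither change passed the test (0.18, SE 0.17, adjusted p = 0.562 with unloading, and 0.33, SE 0.17, adjusted p = 0.271 with diabetes). With the trend removed they were -0.09 and -0.07.

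The balance of the 2 proteoglycans was read as the log2 ratio of Dcn to Bgn within each library, which needs no scaling between libraries. In WT muscle it was 1.03, 1.53, 0.41 and 1.90 in controls, 3.58, 3.08, 3.11 and 2.62 after unloading, and 2.38, 2.48, 2.36 and 2.60 in diabetes. In Notch2-mKO muscle it was 2.17, 1.84, 1.5 and 1.95 in controls, 1.99, 2.23, 2.28 and 2.94 after unloading, and 2.58, 2.39, 2.37 and 2.57 in diabetes. Treated and control libraries were fully separated in both WT comparisons and in Notch2-mKO diabetes, and they overlapped in Notch2-mKO unloading. In WT muscle the mean ratio was higher by 1.88 with unloading and 1.24 with diabetes. In Notch2-mKO muscle these differences were 0.49 and 0.62. Exact two-sided permutation tests gave p = 0.0286 for WT unloading, WT diabetes and Notch2-mKO diabetes (0.0381 after Benjamini-Hochberg adjustment over the 4 tests) and 0.0571 for Notch2-mKO unloading, where 0.0286 is the smallest p that 4 against 4 libraries allow. The genes differ in GC content (Bgn 51.2%, Dcn 37.4%), so the base composition of a library also moves this ratio. After trend removal, the log2 changes of Dcn and Bgn were -0.28 and -1.06 for WT unloading, against 0.56 and -1.22 before. For WT diabetes they were -0.32 and -0.50, against 0.54 and -0.65. In Notch2-mKO muscle they were -0.09 and -0.23 for unloading, against 0.18 and -0.29, and -0.07 and -0.19 for diabetes, against 0.33 and -0.26. Dcn thus stayed above Bgn in all 4 comparisons, by a narrower margin than before. The part of base composition in the permutation results was not tested.

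**Figure D2:**
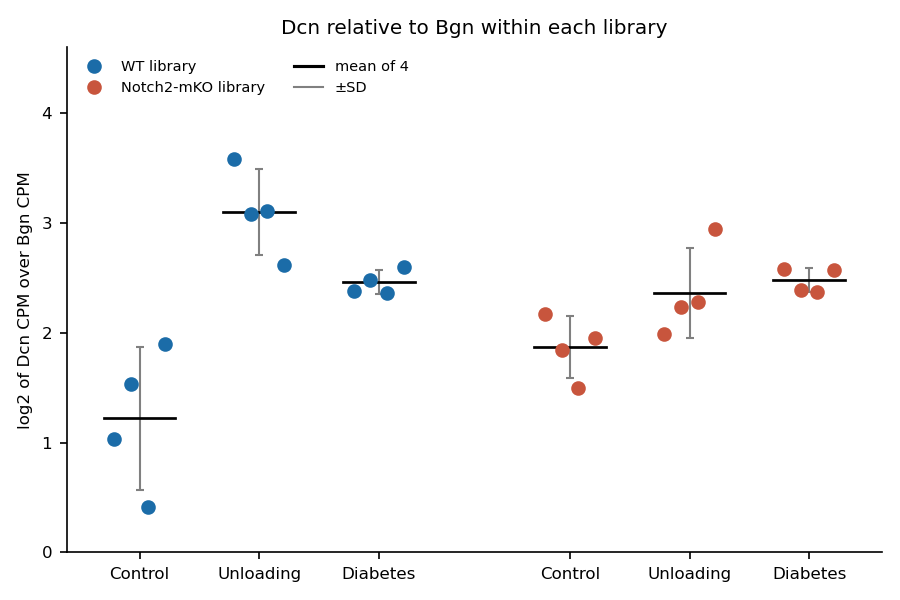
Log2 ratio of Dcn CPM to Bgn CPM within each library (points, blue WT, red Notch2-mKO), with group means of 4 (black lines) and SD (grey bars), on an axis that starts at 0. WT controls lie between 0.41 and 1.90, and all 8 treated WT libraries lie at 2.36 or above.

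Lum (chr10:97565501-97572703, plus strand), next to Dcn on the chromosome, encodes a keratan sulphate proteoglycan that spaces collagen fibrils. It read 5.07, 7.24, 5.43 and 7.70 CPM in WT controls, 5.11, 6.41, 6.68 and 8.90 CPM after unloading and 8.44, 9.26, 8.28 and 15.1 CPM in diabetes. Diabetic libraries were all above the controls, with replicate 4 far above the rest, whereas unloaded ones overlapped them. Lum rose with diabetes by 0.69 (SE 0.20, adjusted p = 0.0104). The call was lost without diabetic replicate 4 (0.44, adjusted p = 0.0781) and with the trend removed (0.27, adjusted p = 0.287). With unloading the change was 0.09 (SE 0.20, adjusted p = 0.772), and -0.37 with the trend removed. In Notch2-mKO muscle Lum read 8.36, 6.85, 5.64 and 8.81 CPM in controls, 7.13, 6.29, 6.37 and 5.26 CPM after unloading and 11.3, 8.78, 7.80 and 10.6 CPM in diabetes. These ranges overlapped and neither change passed the test (-0.24, adjusted p = 0.484, and 0.38, adjusted p = 0.275).

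Fibronectin and osteonectin fell in both WT comparisons. Fn1 (chr1:71585473-71653280, minus strand), which joins collagens to the integrins of the cell surface, read 72.6, 76.7, 69.3 and 72.7 CPM in WT controls. It read 22.7, 26.9, 36.7 and 48.8 CPM after unloading and 44.3, 41.7, 24.3 and 59.2 CPM in diabetes. The controls were tightly grouped and every treated library lay below them. Fn1 fell by 1.11 with unloading (SE 0.23, adjusted p = 0.000696) and by 0.78 with diabetes (SE 0.23, adjusted p = 0.0111). The latter missed the threshold without diabetic replicate 3 (-0.59, adjusted p = 0.0518). In Notch2-mKO muscle Fn1 read 52.5, 64.3, 46.6 and 82.1 CPM in controls, 32.4, 37.4, 56.4 and 36.6 CPM after unloading and 54.1, 46.6, 39.6 and 42.8 CPM in diabetes. The Notch2-mKO controls were spread more widely than the WT ones and overlapped both treated groups. The changes of -0.59 (SE 0.23, adjusted p = 0.109) and -0.42 (SE 0.23, adjusted p = 0.287) did not pass the test, although the unloading change did without unloaded replicate 3 (-0.79, adjusted p = 0.043).

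Sparc (chr11:55394159-55420080, minus strand) encodes a collagen-binding protein that takes part in fibril assembly and basement membrane turnover. Its level was 336, 402, 334 and 389 CPM in WT controls, 163, 146, 183 and 291 CPM after unloading and 177, 201, 115 and 195 CPM in diabetes. No treated WT library reached a control. Sparc fell by 0.90 with unloading (SE 0.21, adjusted p = 0.00202) and by 1.09 with diabetes (SE 0.21, adjusted p = 0.000452), and both calls held in all 8 fits with 1 library left out and with the trend removed (-0.71 and -0.89). In Notch2-mKO muscle it was 278, 242, 232 and 414 CPM in controls, 140, 181, 244 and 241 CPM after unloading and 194, 178, 182 and 148 CPM in diabetes. Control replicate 4 was far above the other 3, and the diabetic libraries lay below all controls. Sparc fell by 0.73 with diabetes (SE 0.21, adjusted p = 0.0438), and the unloading change was -0.53 (SE 0.21, adjusted p = 0.118). The diabetes call held in 1 of 8 fits with 1 library left out, the one without control replicate 1. It was -0.51 (adjusted p = 0.206) without control replicate 4, between -0.83 and -0.66 (adjusted p up to 0.137) without any of the other 6 libraries, and -0.64 (adjusted p = 0.0694) with the trend removed.

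Tenascin-C was lower after unloading in both genotypes, at low counts. Tnc (chr4:63959785-64047015, minus strand) encodes a large matricellular protein of tendon junctions and regenerating muscle that reduces cell adhesion. Its level was 1.77, 3.89, 1.75 and 3.77 CPM in WT controls, 0.587, 0.596, 1.87 and 1.11 CPM after unloading and 1.90, 1.69, 2.40 and 0.948 CPM in diabetes. Unloaded replicate 3 overlapped the lower pair of controls, which sat well under the other pair. Tnc fell by 1.43 with unloading (SE 0.40, adjusted p = 0.00719, called in all 8 fits with 1 library left out), and the diabetes change was -0.69 (SE 0.39, adjusted p = 0.171). In Notch2-mKO muscle it was 2.51, 3.15, 1.26 and 3.26 CPM in controls, 0.699, 0.843, 1.60 and 0.991 CPM after unloading and 0.544, 0.888, 1.40 and 1.01 CPM in diabetes. Control replicate 3 lay within both treated ranges. Tnc fell by 1.3 with unloading (SE 0.40, adjusted p = 0.0466) and by 1.41 with diabetes (SE 0.40, adjusted p = 0.0401). Each of these calls held in 2 of 8 fits with 1 library left out: the change was -1.31 to -1.15 (adjusted p 0.0611 to 0.116) for unloading without control replicates 1, 2 or 4 or unloaded replicates 1, 2 or 4, and -1.64 to -1.21 (adjusted p 0.05 to 0.125) for diabetes without control replicates 2 or 4 or any diabetic replicate. With the trend removed the unloading value was -1.17 (adjusted p = 0.0588). The estimated counts of Tnc ran from 25 to 164 per library, the lowest of the 10 genes.

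Postn (chr3:54359267-54391041, plus strand), a matricellular protein that promotes collagen cross-linking and is known for its rise in fibrosis, did not pass the test in any comparison. It read 1.98, 2.68, 2.32 and 3.82 CPM in WT controls, 0.849, 1.27, 1.47 and 3.77 CPM after unloading and 1.16, 3.89, 6.45 and 2.65 CPM in diabetes. The diabetic libraries were the most widely spread and overlapped both other groups, and unloaded replicate 4 stood well above the other 3. The changes were -0.57 with unloading (SE 0.42, adjusted p = 0.315) and 0.40 with diabetes (SE 0.41, adjusted p = 0.49). Without unloaded replicate 4 the former was -1.17 (adjusted p = 0.0319), and with the trend removed it was -1.53 (adjusted p = 0.00763). Postn has the lowest GC content of the 10 genes, 36.3%. The diabetes change turned to -0.07 without diabetic replicate 3 and to -0.64 with the trend removed. In Notch2-mKO muscle Postn read 2.10, 1.88, 2.13 and 2.68 CPM in controls, 1.31, 1.31, 2.28 and 0.809 CPM after unloading and 2.72, 3.45, 2.66 and 1.55 CPM in diabetes. Both treated groups overlapped the controls, with changes of -0.62 (adjusted p = 0.384) and 0.24 (adjusted p = 0.781).

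Ctgf (chr10:24595442-24598683, plus strand) encodes a matricellular protein that TGF-beta and YAP both induce, and it likewise passed the test in no comparison. In WT muscle it read 20.5, 27.1, 11.9 and 15.6 CPM in controls, 10.4, 11.4, 17.0 and 18.7 CPM after unloading and 26.0, 24.3, 30.6 and 17.8 CPM in diabetes. All 3 WT groups overlapped, with changes of -0.39 (SE 0.34, adjusted p = 0.405) and 0.39 (SE 0.34, adjusted p = 0.398). In Notch2-mKO muscle it read 16.5, 20.0, 12.5 and 12.6 CPM in controls, 4.50, 27.9, 29.1 and 27.0 CPM after unloading and 20.2, 20.1, 22.4 and 20.8 CPM in diabetes. Unloaded replicate 1 was the lowest of all 24 libraries for Ctgf, and the other 3 unloaded libraries were above every control. The unloading change was 0.52 (SE 0.34, adjusted p = 0.36) with all libraries and 0.86 (adjusted p = 0.0326) without replicate 1, the library whose scaling factor and muscle fibre genes also stood apart. The diabetic libraries all lay above the controls, by a narrow margin, and their change of 0.44 did not pass the test (SE 0.34, adjusted p = 0.479).

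Of the elastic fibre genes, fibrillin-1 fell with diabetes in both genotypes and with unloading in WT. Fbn1 (chr2:125300594-125506485, minus strand) encodes the main protein of microfibrils. It read 41.8, 49.8, 37.2 and 65.2 CPM in WT controls, 14.0, 16.1, 26.5 and 42.8 CPM after unloading and 17.1, 17.5, 13.7 and 18.1 CPM in diabetes. The diabetic libraries were tightly grouped far below the controls, while unloaded replicate 4 reached into the control range. Fbn1 fell by 1.55 with diabetes (SE 0.35, adjusted p = 0.00154), which held in all 8 fits with 1 library left out and with the trend removed (-1.53). It fell by 0.97 with unloading (SE 0.35, adjusted p = 0.0324). The unloading call held in 3 of 8 such fits: it was lost without WT control replicate 2 (-0.96, adjusted p = 0.0575) or 4 (-0.80, adjusted p = 0.0959) and without unloaded replicate 1 (-0.77, adjusted p = 0.111), 2 (-0.81, adjusted p = 0.109) or 3 (-1.0, adjusted p = 0.0517).

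In Notch2-mKO muscle Fbn1 read 34.3, 22.0, 22.6 and 81.6 CPM in controls, 23.5, 24, 38.9 and 33.9 CPM after unloading and 21.3, 14.6, 11.3 and 11.7 CPM in diabetes. Control replicate 4 was far above the other 3 controls, and the diabetic libraries lay below every control, the highest of them only just. Fbn1 fell by 1.44 with diabetes (SE 0.35, adjusted p = 0.0206). Without control replicate 4 the change was -0.83 (adjusted p = 0.14), and the call was also lost without diabetic replicate 2, 3 or 4 (-1.44 to -1.34, adjusted p 0.0536 to 0.0792). The unloading change was -0.41 (SE 0.34, adjusted p = 0.485) and turned to 0.18 without control replicate 4. The same control library held the highest Notch2-mKO control level of 8 of the 10 genes, all but Dcn and Ctgf.

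Eln (chr5:134702595-134747368, minus strand), the elastic core protein that vessel walls hold in large amount, read 10.3, 13.1, 17.8 and 14.5 CPM in WT controls. It read 5.98, 6.84, 7.87 and 11.5 CPM after unloading and 7.06, 11.4, 9.25 and 13.8 CPM in diabetes. Only unloaded replicate 4 overlapped the controls, whereas the diabetic libraries spread across the lower part of their range. Eln fell by 0.79 with unloading (SE 0.26, adjusted p = 0.0185), and the diabetes change was -0.42 (SE 0.25, adjusted p = 0.209). The unloading call was lost without control replicate 3 (-0.66, adjusted p = 0.0693) or unloaded replicate 1 (-0.67, adjusted p = 0.0684) or 2 (-0.72, adjusted p = 0.0584). It was also lost with the trend removed (-0.49, adjusted p = 0.135). Eln is the most GC-rich of the 10 genes, at 58.8%. In Notch2-mKO muscle Eln read 8.54, 15.0, 10.3 and 19.4 CPM in controls, 7.09, 9.64, 10.2 and 11 CPM after unloading and 6.52, 13.1, 11.2 and 10.1 CPM in diabetes. The groups overlapped and neither change passed the test (-0.49, adjusted p = 0.234, and -0.38, adjusted p = 0.404).

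**Figure D3:**
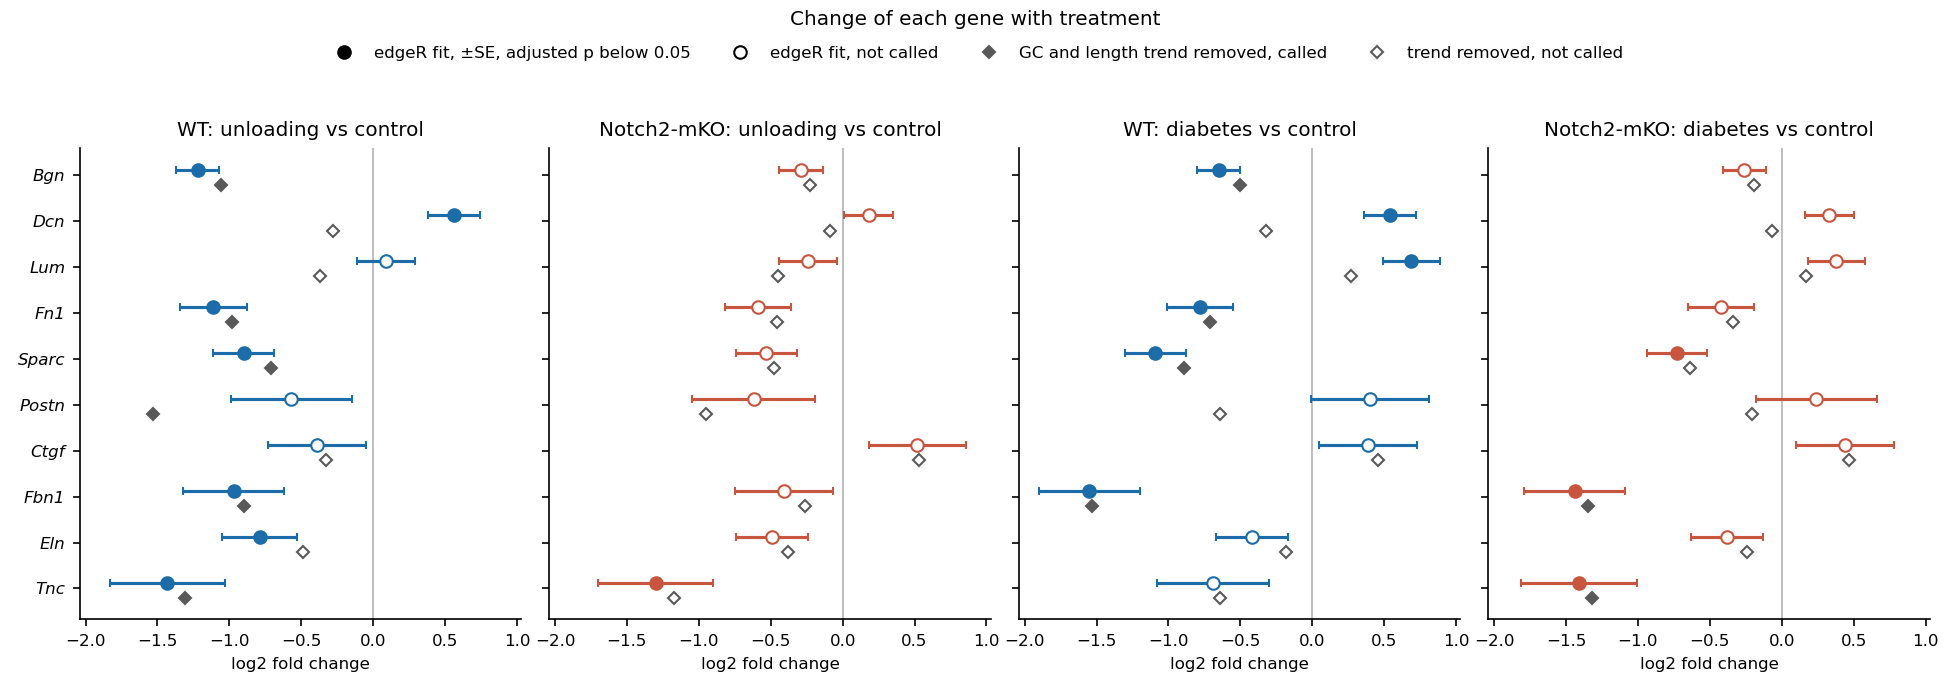
Log2 fold change of each gene against the controls of its own genotype (circles with SE bars, edgeR fit of 24 libraries, filled where the adjusted p is below 0.05) and after removal of the GC and length trend (diamonds, filled by the same rule). In WT muscle Bgn, Fn1, Sparc and Fbn1 are filled to the left of 0 in both treatments under both analyses, and Dcn crosses 0 when the trend is removed.

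**Figure D4:**
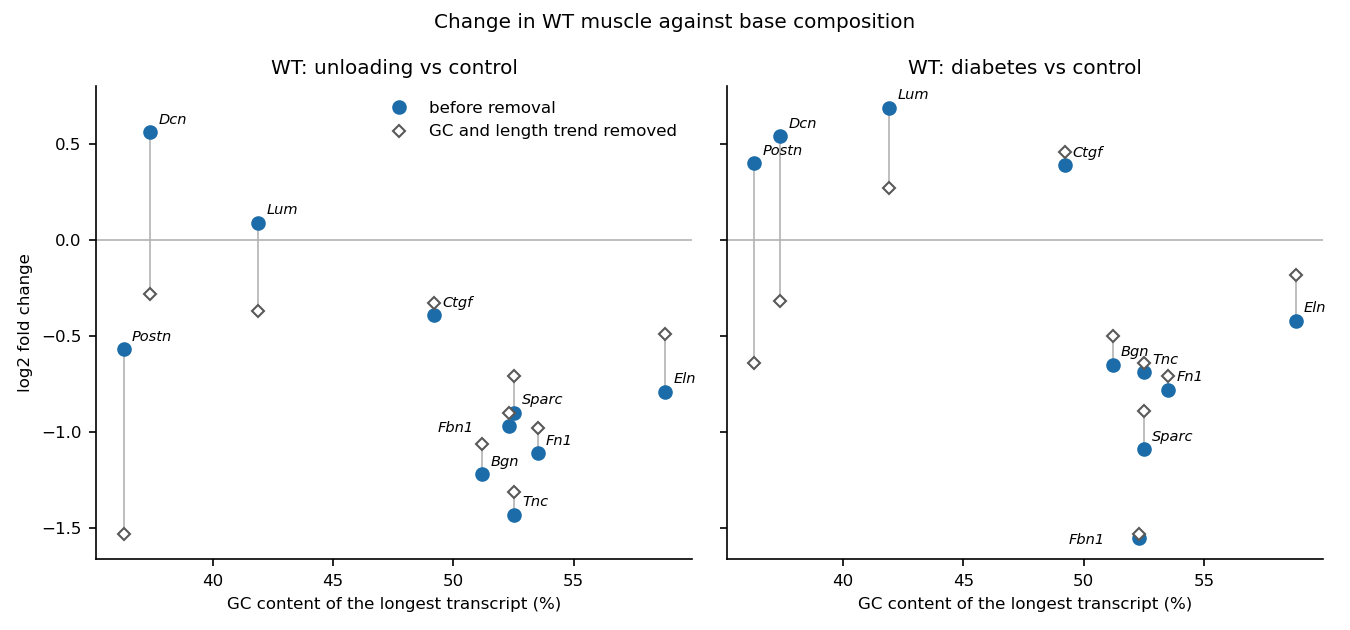
Log2 fold change in WT muscle (unloading left, diabetes right) against GC content of the gene's longest transcript in percent, before (blue circles) and after (open diamonds) removal of the GC and length trend, joined by a line. The 3 AT-rich genes Postn, Dcn and Lum move down by the widest margins, and genes near 50% GC move little.

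The question of whether loss of Notch2 from fibres altered these genes was addressed by comparing genotypes within each state and by testing the difference between their responses. No gene among all 13048 tested, and none of these 10, was called in any of the 5 comparisons by edgeR's quasi-likelihood test (0.0% of all genes in each). At an unadjusted p below 0.05 there were 695 genes in controls, 1345 after unloading, 692 in diabetes, 1875 for the difference in unloading response and 1142 for that in diabetes response, and DESeq2 called 3, 5, 0, 128 and 1 genes. Of the 10 genes, 1 had an unadjusted p below 0.05 in each of the first 4 of these comparisons and 0 in the last. The median genotype difference (Notch2-mKO minus WT) over the 10 genes was -0.26 in controls, 0.14 after unloading and -0.07 in diabetes, beside 0.01, 0.02 and -0.0 over all genes.

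Among the 10, biglycan was the gene with the lowest p in the controls, after unloading and for the unloading response. It was lower in Notch2-mKO than in WT controls by a log2 difference of -0.44 (SE 0.15, unadjusted p = 0.00798, adjusted p = 0.893), with no overlap between the libraries. After unloading it was higher in Notch2-mKO, at 0.50 (SE 0.15, unadjusted p = 0.00288, adjusted p = 0.4), with replicate 4 of the Notch2-mKO group inside the WT range. The unloading responses thus differed by 0.94 (SE 0.21, unadjusted p = 0.000188, adjusted p = 0.122), which did not pass the test. DESeq2 gave 0.93 with an adjusted p of 0.0248, and edgeR passed the threshold without WT control replicate 4 (0.97, adjusted p = 0.0251) or unloaded WT replicate 4 (1.08, adjusted p = 0.0421) but not with the trend removed (0.83, adjusted p = 0.333). The difference between genotypes in the Bgn response to unloading therefore depended on the tool and on single libraries. Other genotype differences were further from the threshold. In controls Sparc was -0.33 (SE 0.21, unadjusted p = 0.138, adjusted p = 0.902) and Lum was 0.22 (SE 0.20, adjusted p = 0.933). Ctgf after unloading was 0.62 (SE 0.34, adjusted p = 0.538), with a response difference of 0.91 (SE 0.48, adjusted p = 0.402). In diabetes the lowest p was that of Tnc, at -0.85 (SE 0.40, unadjusted p = 0.0435, adjusted p = 0.872).

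The treatments were also compared with each other, since both cause wasting. In WT muscle Bgn alone was called, as higher in diabetes (values above), where 2.31% of all genes were higher in diabetes and 1.24% lower. In Notch2-mKO muscle edgeR called 0 of the 10 genes, against 1.95% of all genes higher and 1.12% lower, with 2 of the 10 at an unadjusted p below 0.05 and 0 called by DESeq2. Those 2 were Lum, at 0.62 (SE 0.20, adjusted p = 0.0985), and Fbn1, which was lower in diabetes by a log2 difference of -1.03 (SE 0.35, adjusted p = 0.119) and passed the threshold in a fit of these 2 groups only (-1.02, adjusted p = 0.0232). In WT muscle Lum was 0.60 (SE 0.20, adjusted p = 0.0996, and 0.64 with adjusted p = 0.0421 when the trend was removed) and Postn was 0.96 (SE 0.42, adjusted p = 0.229). Postn passed the threshold without unloaded replicate 4 (1.57, adjusted p = 0.0404). Unloading and diabetes share their controls, so the members' changes in both are given side by side above and no likeness between them is drawn.

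Per kilobase of exon, so that genes can be set against each other, Sparc was the most abundant of the 10 in WT controls at 159 ± 15.5 CPM per kb (SD, n = 4), followed by Dcn at 79.0 ± 26.6 and Bgn at 26.2 ± 3.36 CPM per kb. Fn1 at 8.73 ± 0.36 and Ctgf at 7.82 ± 2.74 CPM per kb were within their spread of each other, as were the neighbours Fbn1 at 4.93 ± 1.25, Eln at 3.61 ± 0.81 and Lum at 2.60 ± 0.532 CPM per kb. Postn at 0.821 ± 0.243 and Tnc at 0.394 ± 0.169 CPM per kb were the scarcest, in that order in every group. Decorin and osteonectin changed places with treatment. Dcn was at 117 ± 7.58 and Sparc at 85.0 ± 28.4 CPM per kb in unloaded WT muscle, and at 115 ± 11 and 74.8 ± 17.1 CPM per kb in diabetic WT muscle. In Notch2-mKO muscle Sparc led in controls (127 ± 36.4 against 89.4 ± 17.2 CPM per kb) and Dcn led after unloading (101 ± 17.7 against 87.6 ± 21.9) and in diabetes (113 ± 7.01 against 76.3 ± 8.42). The levels of the 2 genes overlapped between libraries in both unloaded groups and in Notch2-mKO controls, and were separate in the other groups. This order is on the scale before the trend is removed.

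Across the 24 libraries the closest pair was Sparc and Fbn1, with a Pearson r of log2 CPM of 0.88, and 0.83 after group means were subtracted. Fn1 and Sparc gave 0.85 and 0.81, and Fn1 and Fbn1 gave 0.69 and 0.73. Bgn and Dcn gave -0.56, and -0.10 once group means were subtracted. The fibronectin, osteonectin and fibrillin genes therefore varied together within groups also. Outside the 10, the genes whose levels were most like the mean standardised level of the 10 were Lamb1 (a laminin chain, r = 0.91), Nid1 (nidogen, which links laminin to collagen IV, r = 0.90), Parva (parvin, an integrin-linked adaptor, r = 0.87), Sparcl1 (a relative of Sparc, r = 0.87), Myadm (r = 0.85), Arhgap1 (r = 0.83), Cd34 (r = 0.83) and Bmp1 (the procollagen protease, r = 0.83). With group means subtracted these ranged from 0.72 for Arhgap1 to 0.90 for Lamb1. The points share 6 groups, their controls and the library trend, so these are descriptions.

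Other matrix genes were taken from 6 lists. Of all tested genes 18.4% were called higher and 16.3% lower with WT unloading, and 17.8% and 15.5% with WT diabetes. In Notch2-mKO muscle these shares were 4.11% and 3.2% with unloading, and 3.05% and 2.54% with diabetes. Several of the list counts below lie near these shares. Of 12 measured proteoglycan relatives, 2 rose and 6 fell with WT unloading, 2 rose and 5 fell with WT diabetes, and 0 rose while 4 and 3 fell in Notch2-mKO muscle, with median changes of -0.68, -0.37, -0.43 and -0.41. Chad (chondroadherin, a cartilage and tendon protein that binds integrins) went from 24.8 ± 3.89 CPM in WT controls to 4.37 ± 1.20 CPM after unloading (SD, n = 4 each; -2.50, adjusted p = 8.86e-06). It fell in the other 3 comparisons too, by 2.64 with WT diabetes and by 1.80 and 2.12 in Notch2-mKO muscle. Fmod (fibromodulin, which shares a collagen site with lumican and is rich in tendon) went from 162 ± 25.7 to 48.0 ± 24.5 CPM with WT unloading and fell in all 4 comparisons, with log2 changes from -1.76 to -1.54. Prelp, a heparin-binding relative, fell by 1.01 with WT unloading, by 0.80 with WT diabetes and by 0.64 with Notch2-mKO unloading. Kera (keratocan) fell by 1.41 with WT unloading, by 2.0 with WT diabetes and by 1.55 with Notch2-mKO diabetes, calls that held in 6, 8 and 1 of 8 fits with 1 library left out. The 2 that rose in WT were Aspn (asporin) and Ogn (osteoglycin): Aspn by 1.88 with unloading and 1.95 with diabetes, and Ogn by 1.06 and 1.47. With the trend removed these became 0.87, 0.97, 0.19 and 0.63, and the unloading value of Ogn was no longer called (adjusted p = 0.499).

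Elastic fibre and microfibril partners went down without exception among those called. The genes counted here included Nid1 and Nid2, nidogens that link laminin to collagen IV, and both fell with WT unloading. Of 17 measured, 12 fell with WT unloading, 9 with WT diabetes, and 3 in each Notch2-mKO comparison, with medians of -0.74, -0.53, -0.42 and -0.30 and 0 higher. With the trend removed 9, 4, 3 and 2 fell. Mfap4, a microfibril-associated glycoprotein, went from 8.85 ± 1.05 to 2.0 ± 1.12 CPM with WT unloading (-2.16, adjusted p = 2.4e-05), and it fell by 2.05 with WT diabetes and by 1.47 and 1.62 in Notch2-mKO muscle. Emilin1, which joins elastin to microfibrils, fell by 1.17 and 1.14 with unloading in WT and Notch2-mKO. It also fell by 0.55 with WT diabetes, in 2 of 8 fits with 1 library left out and not with the trend removed. Ltbp4, which anchors latent TGF-beta to microfibrils, fell by 0.85 and 1.01 in WT muscle. Loxl1, an elastin cross-linking enzyme, fell by 1.01 with WT diabetes and by 0.49 with WT unloading. The unloading call of Loxl1 held in 5 of 8 such fits and not with the trend removed. The Notch2-mKO calls of Nid2 (-0.84 with unloading and -0.81 with diabetes) and Ltbp4 (-0.65 with diabetes) held in 5, 2 and 2 of 8 fits with 1 library left out, and that of Nid2 in diabetes was lost with the trend removed (adjusted p = 0.0519). In WT muscle Nid2 fell by 0.87 with unloading and by 0.62 with diabetes, the latter in 3 of 8 such fits and not with the trend removed. With 1 library left out, the number that fell ranged from 10 to 13 for WT unloading and from 5 to 9 for WT diabetes.

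Matricellular relatives were mixed. Of 16 measured, 2 rose and 5 fell with WT unloading, 1 rose and 3 fell with WT diabetes, 1 rose and 4 fell with Notch2-mKO unloading and 0 rose and 2 fell with Notch2-mKO diabetes, with medians of -0.24, 0.0, -0.29 and -0.20. Thbs4 (thrombospondin-4, abundant at the muscle-tendon junction) went from 88.0 ± 16.3 to 31.4 ± 5.30 CPM with WT unloading (-1.49, adjusted p = 2.06e-06) and fell by 1.17, 1.14 and 1.25 in WT diabetes, Notch2-mKO unloading and Notch2-mKO diabetes. Comp (cartilage oligomeric matrix protein, also a tendon protein) fell by 2.18, 1.37, 1.92 and 1.43 in the same order. Ecm1 fell by 1.17 and 0.82 in WT muscle, and Tnxb fell by 0.99 with WT unloading (adjusted p = 5.95e-05, called also with the trend removed) and by 0.66 with Notch2-mKO unloading (not called with the trend removed, adjusted p = 0.0528). Cyr61 (CCN1), the closest relative of Ctgf and also a YAP target, rose where Ctgf was not called: by 1.25 with WT unloading (called in 3 of 8 fits with 1 library left out), 1.68 with WT diabetes and 1.78 with Notch2-mKO unloading. In the last the libraries ran from 8.91 to 88.3 CPM (37.8 ± 35.9, SD, n = 4), and without unloaded replicate 4 the change was 0.92 (adjusted p = 0.127). Spp1 (osteopontin) rose by 1.35 with WT unloading, in 3 of 8 such fits, and was not called with the trend removed (1.01, adjusted p = 0.125).

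Of 17 matrix receptors, 1 rose and 5 fell with WT unloading, 3 rose and 1 fell with WT diabetes, 0 rose and 1 fell with Notch2-mKO unloading and 0 were called with Notch2-mKO diabetes by edgeR (2 at an unadjusted p below 0.05, 0 by DESeq2). The medians were -0.01, 0.24, -0.25 and -0.04. After trend removal 2 rose and 3 fell with WT unloading, and 2 rose and 1 fell with WT diabetes. The 4 medians were then -0.24, 0.05, -0.29 and -0.06. The syndecans Sdc1 and Sdc3, cell-surface heparan sulphate proteoglycans, fell by 1.01 and 0.54 with WT unloading, and Itga11, a collagen-binding integrin chain, by 0.78. Sdc3 fell by 0.47 with Notch2-mKO unloading, in 5 of 8 fits with 1 library left out, and was not called in WT with the trend removed (-0.26, adjusted p = 0.0726). Sdc4, a syndecan that binds fibronectin together with integrins, rose with WT diabetes from 4.28 ± 1.01 to 9.62 ± 2.48 CPM (1.17, adjusted p = 0.000108), while Sdc1 fell by 0.99. Itgb1, the shared beta chain of the fibronectin and collagen receptors, rose by 0.40 in each WT comparison and was not called with the trend removed (0.16 and 0.14).

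Of 14 proteases and inhibitors, 0 rose and 5 fell with WT unloading, 1 rose and 4 fell with WT diabetes, 0 were called with Notch2-mKO unloading by edgeR (2 at an unadjusted p below 0.05, 0 by DESeq2) and 1 rose with Notch2-mKO diabetes. The medians were -0.51, -0.35, -0.25 and -0.38, and with the trend removed 2 fell with WT unloading and 1 with WT diabetes. Adamts2, a procollagen N-protease, fell by 0.83 and 0.91 in WT muscle, and Bmp1, the C-protease that also trims biglycan, fell by 0.83 with WT unloading. Bmp1 also fell by 0.62 with WT diabetes, in 3 of 8 fits with 1 library left out and not with the trend removed. Timp3, a matrix-bound protease inhibitor, rose by 0.86 with WT diabetes and by 0.49 with Notch2-mKO diabetes, the latter in 2 of 8 fits with 1 library left out. Timp2 fell by 0.43 and 0.38 in WT muscle, in 6 and 3 of 8 such fits, and was not called with the trend removed.

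Of 18 genes of TGF-beta and YAP signalling, 7 rose and 4 fell with WT unloading, 8 rose and 3 fell with WT diabetes, 0 were called with Notch2-mKO unloading by edgeR (4 at an unadjusted p below 0.05, 2 by DESeq2), and 2 fell with Notch2-mKO diabetes. The medians were 0.15, 0.48, 0.10 and 0.11, and with 1 library left out the number that rose with WT unloading ranged from 3 to 8. After trend removal 6 rose and 2 fell with WT unloading, and 8 rose and 3 fell with WT diabetes. The 4 medians were then 0.05, 0.09, 0.15 and 0.12. Tgfb1, the ligand held latent by fibrillin partners, went from 9.35 ± 0.385 CPM in WT controls to 5.24 ± 0.232 after unloading and 5.32 ± 0.808 in diabetes (-0.83 and -0.82, adjusted p = 3.06e-05 and 5.19e-05). Its receptor Tgfbr1 rose by 1.3 and 1.33, or by 0.74 and 0.73 with the trend removed. Tgfb2 rose by 0.77 with WT unloading and by 0.65 with WT diabetes. Tgfb3 fell by 0.54 with WT unloading and by 0.35 with WT diabetes. The diabetes call of Tgfb3 held in 7 of 8 fits with 1 library left out and not with the trend removed (adjusted p = 0.272). Smad3, a transcription factor of the pathway, fell by 0.88 with WT unloading, in 7 of 8 such fits and at an adjusted p of 0.053 with the trend removed, and by 1.34 with WT diabetes. Ski, a repressor of SMAD activity, fell by 0.26 with WT unloading, in 4 of 8 such fits and not with the trend removed (-0.05). Others rose with both WT unloading and WT diabetes: Tgfbr3 (0.66 and 0.83), Ankrd1 (2.06 and 1.85), Smad7 (1.10 and 1.39), Smad4 (0.34 and 0.49) and Skil (0.80 and 0.72). Amotl2 rose with WT diabetes only (0.53), in 2 of 8 such fits. Skil was not called with the trend removed, and the unloading calls of Smad7 and Smad4 held in 5 and 3 of 8 such fits. The 2 that fell with Notch2-mKO diabetes were Tgfb1 (-0.51) and Smad3 (-0.89), in 3 and 1 of 8 such fits, and neither was called with the trend removed (adjusted p = 0.0597 and 0.0877).

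**Figure D5:**
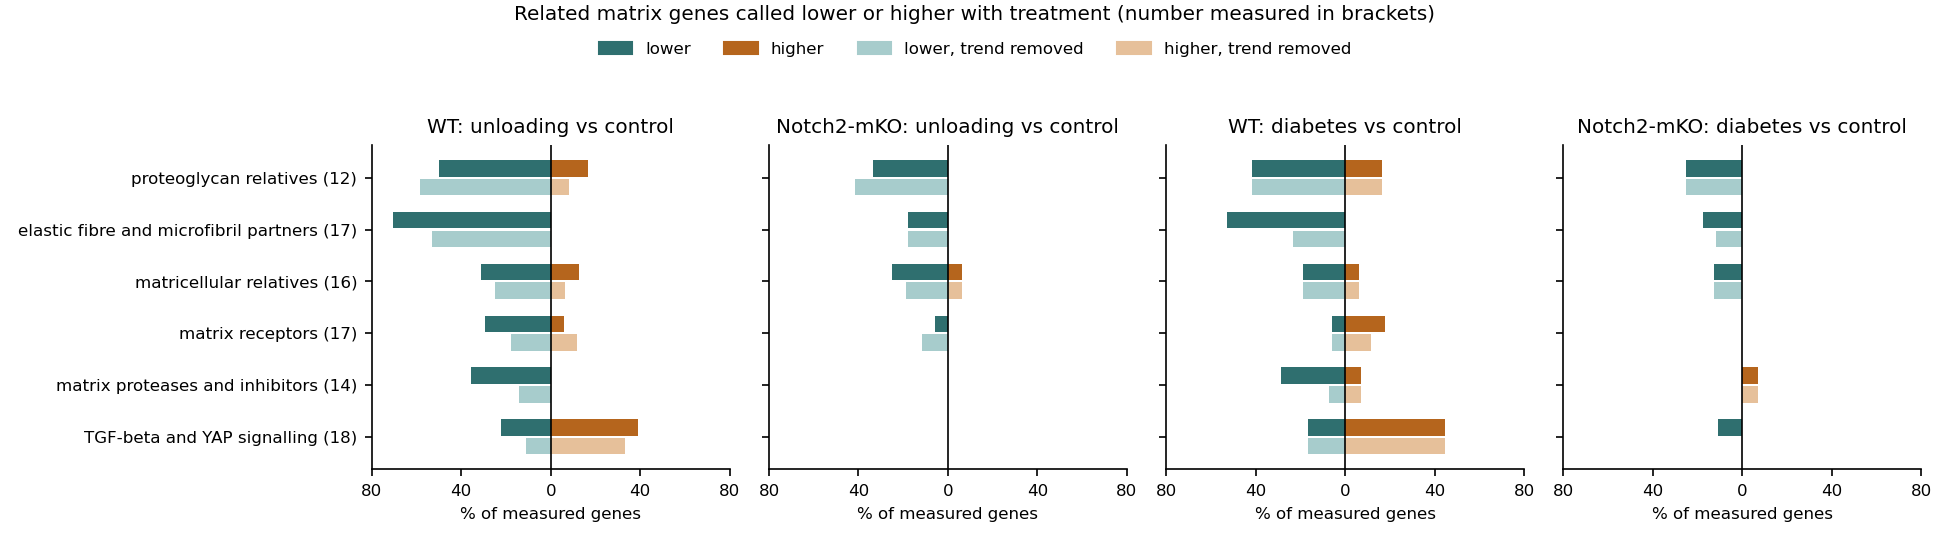
Share in percent of the measured genes of each list that were called lower (to the left of 0, teal) or higher (to the right, orange) in the 4 treatment comparisons, with the upper bar of each pair before and the lower, paler bar after removal of the GC and length trend. The number measured stands in brackets after each list. The list of elastic fibre partners, which also holds Nid1 and Nid2, has bars only on the lower side, at 12 of 17 for WT unloading.

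Because the RNA came from whole muscle, fewer cells of a type and less RNA per cell cannot be told apart in any of these results. The marker counts below stand beside the shares of all tested genes, of which 18.4% rose and 16.3% fell with WT unloading. With WT diabetes 17.8% rose and 15.5% fell. In Notch2-mKO muscle 4.11% rose and 3.2% fell with unloading, and 3.05% rose and 2.54% fell with diabetes. Of 12 fibroblast and progenitor markers 11 were tested, and 0 rose and 5 fell with WT unloading, 1 rose and 3 fell with WT diabetes, and 0 rose and 1 fell in each Notch2-mKO comparison. Their summed level ran over 708 to 1040 CPM in WT controls, 776 to 1150 after unloading and 978 to 1370 in diabetes, and over 746 to 1090, 605 to 1040 and 949 to 1300 CPM in the same Notch2-mKO groups, with Tcf21 at a median of 0. The sum is mostly Gsn, at 402 to 1100 CPM, which other cells also express, and Pdgfra was at 11.9 to 19.9 CPM. Of 6 tenocyte markers 0 rose and 2 fell in each of the 4 comparisons, with sums of 50.9 to 82.9, 32.8 to 54.4 and 23.8 to 45.1 CPM in WT and 46.1 to 84.8, 45.5 to 93.8 and 39.0 to 54.7 CPM in Notch2-mKO for control, unloading and diabetes. The 2 that fell were Tnmd and Cilp2 each time, by 1.96 and 2.33 with WT unloading, and Scx, Mkx, Egr1 and Tppp3 were not called in any of the 4. Chad, Fmod, Thbs4 and Comp fell in the same 4 comparisons and Tnc in 3 of them, and the part that tendon in the sample had in those results was not tested.

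Markers of vessel and blood cells were mixed. Of 10 endothelial markers 3 fell in both WT comparisons and in Notch2-mKO unloading, with sums of 285 to 362 CPM in WT controls, 208 to 256 after unloading and 231 to 287 in diabetes, and of 219 to 398, 182 to 253 and 215 to 284 CPM in Notch2-mKO. Of 8 smooth muscle and pericyte markers tested of 9, 1 rose and 4 fell with WT unloading, 2 rose and 1 fell with WT diabetes, and 0 and 1 fell in Notch2-mKO, with Acta2 listed at 0 in every library. Their sums were 357 to 402, 334 to 395 and 351 to 413 CPM in WT and 354 to 409, 329 to 364 and 349 to 388 CPM in Notch2-mKO. The largest part of these sums was Abcc9, at 190 to 255 CPM over the 24 libraries, so they say little about the other markers. Of 10 macrophage and leukocyte markers 5 fell with WT unloading, where the sum was 51.3 to 67.4 against 74.8 to 86.4 CPM in controls, and 2 rose and 1 fell with WT diabetes, at 67.1 to 83.1 CPM. In Notch2-mKO edgeR called 0 of them in either comparison (1 in each at an unadjusted p below 0.05, and 1 by DESeq2, with unloading), and the sums were 54.8 to 91.4, 59.2 to 90.2 and 58.6 to 77.1 CPM. Satellite cell markers (6) had 1 higher with WT unloading and 1 each way with WT diabetes, Schwann cell markers (6) had 1 higher in each WT comparison, adipocyte markers (5) had 1 lower with WT diabetes, and edgeR and DESeq2 called 0 of these in Notch2-mKO, where up to 2 satellite cell markers and 0 of the others had an unadjusted p below 0.05. Of the 10 muscle fibre genes 3, 2, 5 and 1 fell in WT unloading, Notch2-mKO unloading, WT diabetes and Notch2-mKO diabetes. After trend removal 2, 2, 1 and 1 of them fell, and 1 rose in each WT comparison. Of the macrophage and leukocyte markers, 3 then fell with WT unloading, and 1 rose and 0 fell with WT diabetes. The part of these shifts in the levels of the matrix genes was not tested.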

How the data were processed

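Whole gastrocnemius RNA from the 24 samples was sequenced by the submitters; total RNA was extracted with ISOGEN and RNeasy columns, per the labels' protocols, and the build was mm10 (submitters' processing notes). The aligner and the counter were not given in the sources used here. The authors deposited 4 tables of 36172 gene models with estimated counts per library, of which 26.4% to 34.6% were whole within 0.001, and with the authors' log2 values centred on the controls of each genotype. The 8 control columns occur in 2 tables each with identical values and were used once.

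Estimated counts were rounded to whole numbers, TMM-scaled and filtered on low counts (filterByExpr), which left 13048 genes. One edgeR 4.0.16 quasi-likelihood fit (R 4.3.3) held all 24 libraries in 6 groups with 18 residual degrees of freedom, and p-values were adjusted by Benjamini-Hochberg over all tested genes and called below 0.05. CPM values are from the same scaling. Exon lengths, used for levels per kilobase, came from GENCODE transcripts matched to RefSeq. GC content and the transcript length of the trend came from the longest GENCODE transcript of each gene, matched to RefSeq or not, and covered 99% of tested genes. The trend was fitted per library with natural splines of 4 degrees of freedom. Alternatives were other scalings, no filter, each library left out, only the groups compared, the replicate number as a block, DESeq2 1.42.0, and limma 3.58.1 on the authors' log2 values. The fit was tested on simulated data. The 10 genes are all named. From each list came up to 3 genes with the smallest p and called genes against the list's direction, with some further called genes. The members, the lists and the tests were chosen with earlier results of these data known. Python 3.11.15 was used for tables.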

Additional observations from a re-analysis of the deposited data

Results flagged for a closer look

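In 3 of the 60 groups of 4 libraries screened, one library lay so far from the other 3 that the gap exceeded Dixon's 95% limit, a set share of the group's range, and chance alone does this in about 1 group in 20. In unloaded Notch2-mKO muscle, Ctgf was 4.50 CPM in replicate 1 against 27.0 to 29.1 CPM in the others, and Dcn was 145 CPM in the same library against 208 to 218 CPM. In diabetic WT muscle, Lum was 15.1 CPM in replicate 4 against 8.28 to 9.26 CPM in the others.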

How the results depend on the processing

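Of the single-gene values described, 118 were recomputed under 1899 alternatives, and 1705 of these kept the direction and the side of the threshold. Counts of the 10 genes called moved in the following cases, among others. With limma on the authors' log2 values, 4 were called for WT unloading, 0 for Notch2-mKO unloading and 0 for Notch2-mKO diabetes. Limma was not run between genotypes, whose log2 values are each centred on their own controls. With the GC and length trend removed, 0 were called for Notch2-mKO unloading and 2 for WT diabetes against WT unloading. For WT unloading that removal lost the calls of Dcn and Eln and gained that of Postn (adjusted p = 0.00763). It also lost the calls of Dcn and Lum for WT diabetes, and that of Sparc for Notch2-mKO diabetes (adjusted p = 0.0694). In fits of only the groups compared, 0 were called for Notch2-mKO unloading, 0 for WT diabetes against WT unloading and 1 for Notch2-mKO diabetes against Notch2-mKO unloading. DESeq2 called 1 for the difference in unloading response. With 1 library left out, the counts ran from 0 to 2 (Notch2-mKO unloading), 0 to 3 (Notch2-mKO diabetes), 0 to 2 (WT diabetes against WT unloading) and 0 to 1 (difference in unloading response). The cause was not tested, except that fewer libraries entered the fits that left some out.

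Directions turned with the trend removed for Dcn (-0.28, -0.32, -0.09 and -0.07 for WT unloading, WT diabetes, Notch2-mKO unloading and Notch2-mKO diabetes), Lum (-0.37, WT unloading) and Postn (-0.64 and -0.21, WT and Notch2-mKO diabetes). With 1 library left out they turned for Lum in WT unloading (-0.07 to 0.20), Fbn1 in Notch2-mKO unloading (-0.64 to 0.18) and Postn in WT diabetes (-0.07 to 0.68). Over all genes, limma split the calls as 3231 higher and 716 lower for WT unloading (edgeR 2395 and 2127) and 3190 and 646 for WT diabetes (edgeR 2327 and 2027). In Notch2-mKO muscle the split was 483 and 139 for unloading (edgeR 536 and 418, upper quartile scaling 435 and 547) and 259 and 93 for diabetes (edgeR 398 and 332, upper quartile scaling 323 and 388).

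The labels give groups the same replicate numbers without saying what a number means. Of 60 pairs of same-numbered libraries, 7 deviated together at a correlation over 0.1 (median -0.00349, highest 0.326). The median for pairs with other numbers was 0.00313. Libraries were therefore not paired by number in general, and a link between particular groups was not tested. With the replicate number as a block, 7, 1, 7 and 2 of the 10 genes were called for WT unloading, Notch2-mKO unloading, WT diabetes and Notch2-mKO diabetes, with Eln in WT diabetes newly called (-0.45, adjusted p = 0.0394) and Sparc in Notch2-mKO diabetes no longer called (-0.68, adjusted p = 0.0511). Depth limits Tnc and Postn most, at 25 to 164 and 40 to 337 estimated counts per library.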
